A study of Macaca mulatta with 14 samples.

Results

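The genes described here encode neuronal tubulins and proteins that bind microtubules: TUBA1A, TUBB2A, TUBB2B, TUBB3, TUBB6, DCX, STMN1, STMN2, MAP2 and MAPT. They were looked up by name, not by their values, among the 33688 gene loci that kept a value in rhesus monkey (Macaca mulatta) cells. Of the 10 genes, 7 were found by symbol. TUBB2A was found by its gene ID at a locus that carries only a LOC number in the table, and TUBB2B and TUBB6 were not analysed here. All 8 genes found reached 1 FPKM in no fewer than 2 libraries, as did 15024 loci in all. FPKM is the number of sequenced fragments scaled by transcript length and by the mapped total of the library, so levels can be set side by side between genes.

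Microtubules are hollow polymers of paired alpha- and beta-tubulin, and vertebrates carry several genes, called isotypes, for each of them. TUBA1A, TUBB2A and TUBB2B are abundant in the developing brain, and TUBB3, the class III beta-tubulin detected by the TUJ1 antibody, is a common label of young neurons. Stathmins bind free tubulin and favour disassembly, while MAP2, tau (the product of MAPT) and doublecortin (DCX) bind the polymer and stabilise it in dendrites, axons and migrating young neurons. In neural stem cells the same polymer forms the mitotic spindle, and some of these genes, STMN1 and TUBA1A among them, are also expressed in dividing cells that are not neurons.

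The cells were followed from fibroblasts to neuroepithelial stem cells (NESCs), a dividing type of neural progenitor. The start was a culture of ear skin fibroblasts (RF-P3) from 2 male fetuses at embryonic day 65. Retroviruses carrying OCT4, SOX2 and KLF4 of the monkey were added, and the cells were then kept in an induction medium with 3 µM CHIR99021 (an inhibitor of GSK3), 5 µM SB431542 (an inhibitor of TGF-beta receptors) and 10 ng/ml bFGF. Cells were taken on day 5 (RF-iN-d5), when the medium had also held 5 µM Y27632 and, by the labels, 1 mM valproic acid, and on day 11 (RF-iN-d11), without these 2 agents. By the labels, the NESC lines grew in a medium with the same CHIR99021, SB431542 and bFGF and with 1000 U/ml human LIF. The study's recipe for this medium names SB431542, bFGF and LIF but not CHIR99021. They are CHIR-P6 (passage 6), CHIR-P23 (passage 23) and the colonies C8-P7 and A9-P7, each grown from 1 single cell of passage 23. All 7 cell lines come from 1 conversion rather than independent conversions. C8-P7 and A9-P7 are parallel colonies, and the other lines are successive stages. The virus, the medium and the stage changed together, so their effects cannot be told apart.

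Each cell line had 2 libraries, 14 in all, with FPKM sums of 571041 to 697718. For 28445 loci (84.3%), the deposited values stood 1 position away from their gene label and were moved back. All 4 of the genes described that appear in the study's own gene table matched it after this step, and 0 did before it. The 2 libraries of a line differed by less than sampling noise: their squared difference over their sum was 0.112 to 0.141, where independent counting gives about 1. They were averaged and counted as 1 sample, so a comparison of 1 line with another has no replicate check. The relative depth of the lines, read from low values that are whole multiples of 1 fragment, was 1.00 in RF-P3, 4.74 in CHIR-P23, 5.31 in A9-P7 and 1.26 to 1.55 in the other lines. The number of fragments behind each value is not known. Markers fitted the labels: 12 fibroblast markers summed to 14.5 to 65.2 FPKM in the NESC lines and 4057 to 7554 FPKM in the earlier lines, and 12 neuroepithelial markers to 871 to 1523 FPKM in the NESC lines and 146 to 311 FPKM in the earlier lines. The fibroblast markers were still at 4057 FPKM on day 5 and 5921 FPKM on day 11.

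The genes did not move together along the conversion. At the NESC stage (4 lines), MAP2 and DCX were higher than before it (3 earlier lines, the fibroblasts and both induction days). STMN2 was lower than on the induction days but overlapped the fibroblasts, and its call against all 3 earlier lines was lost under several alternatives. Differences were tested with limma on log2(FPKM + 1) of the 7 averages across all 15024 genes, and calls required a difference of 2-fold or more with a p under 0.05 after Benjamini-Hochberg adjustment. Against the earlier lines, 2 of the 8 genes were called higher and 1 lower, while 7.57% of all genes tested were called higher and 13.2% lower (20.8% in either direction). Against the induction days alone (RF-iN-d5 and RF-iN-d11, without the fibroblasts), 2 genes were called higher (MAP2 and DCX) and 2 lower (STMN2 and MAPT), beside 8.01% of all genes higher and 14.8% lower (22.8% in either direction). The median log2 difference of the 8 genes was 0.53 against the earlier lines and 0.42 against the induction days, beside -0.02 over all genes in both comparisons. The comparisons share the 4 NESC lines, so they are not independent of each other. RNA from bulk cultures cannot tell fewer cells of a type from less RNA per cell.

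**Figure D1:**
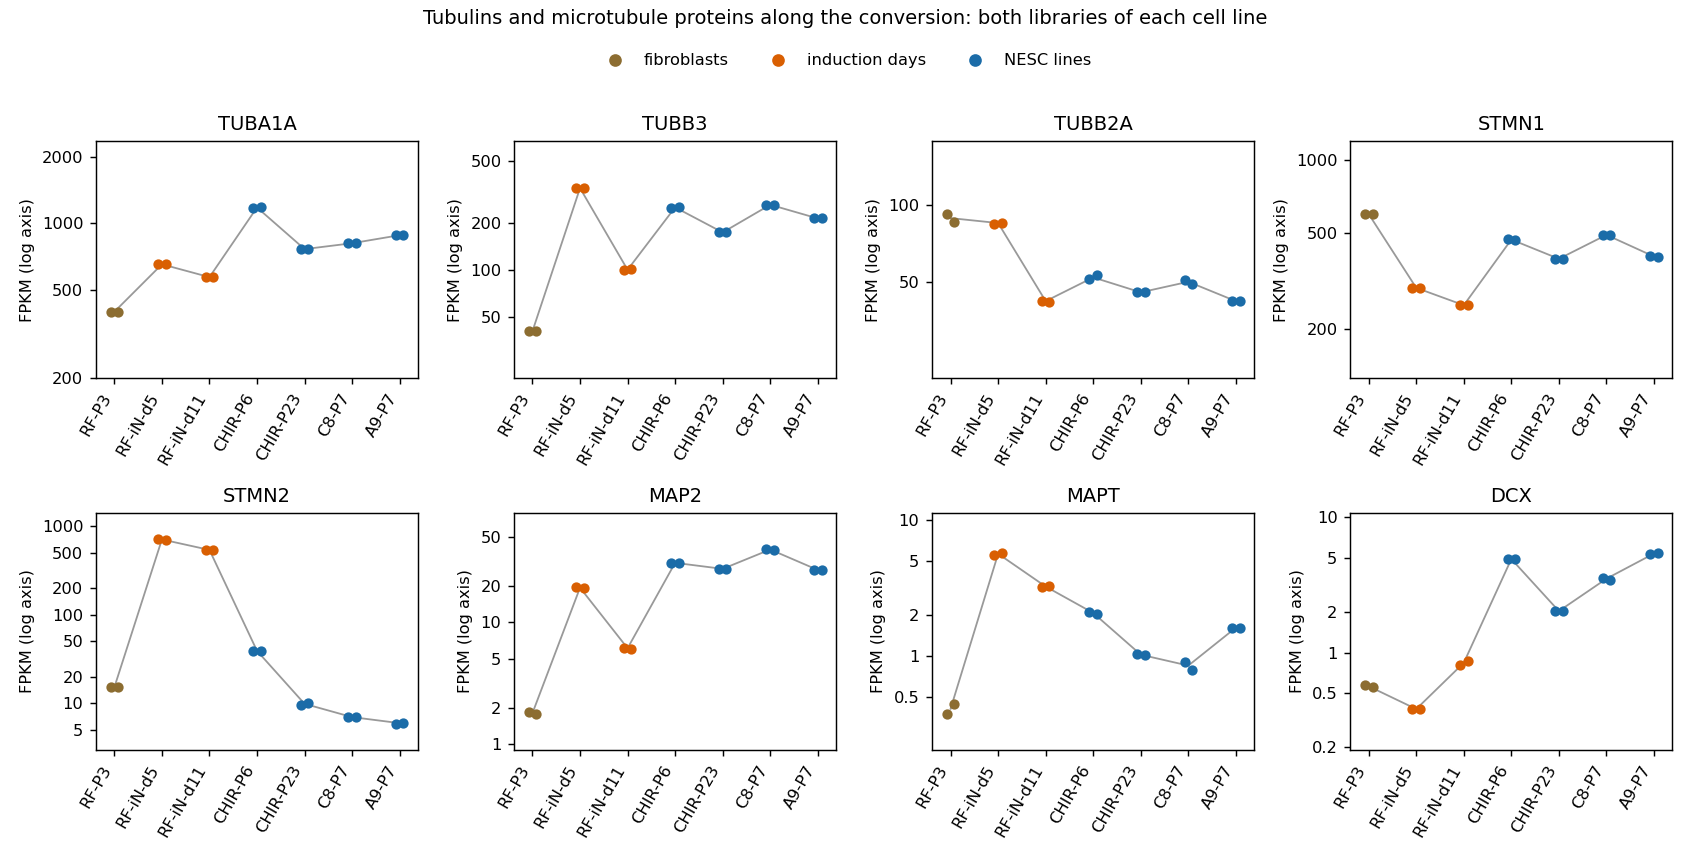
FPKM (log axes, each panel with its own range) of the 8 genes in the 7 cell lines in order of stage, with both libraries of a line as points and their averages joined by a line. STMN2 and MAPT peak on day 5, DCX and MAP2 are highest in the NESC lines, and the 2 libraries of a line nearly coincide.

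TUBA1A, the main alpha-tubulin of young neurons, was the most abundant of these genes in every line except RF-P3, where STMN1 was higher, and RF-iN-d5, where STMN2 was higher. Its averages were 397 FPKM in the fibroblasts, 653 on day 5, 571 on day 11, 1181 at NESC passage 6, 765 at passage 23, 813 in the C8 colony and 884 in the A9 colony. All 4 NESC lines lay above all 3 earlier lines, with CHIR-P6 the highest. NESC lines averaged 911 ± 187 FPKM (SD, n = 4), against 540.2 ± 130.3 FPKM (SD, n = 3) for earlier lines, a log2 difference of 0.76 (SE 0.22, limma adjusted p = 0.028). This is under the 2-fold minimum, so TUBA1A was not called, but after quantile normalization the difference was 1.00 (adjusted p = 0.011) and it was. The log2 difference from the induction days was 0.56 (SE 0.19, limma adjusted p = 0.056). TUBA1A, TUBA1B and TUBA1C are nearly identical in their coding sequence, so how the counting split their fragments is uncertain.

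TUBB3, the neuronal beta-tubulin, had its highest level on day 5 of the induction and not in the NESC lines. It was at 40.6 FPKM in the fibroblasts, 334 on day 5, 100.3 on day 11, 252 at NESC passage 6, 174 at passage 23, 261 in the C8 colony and 214 in the A9 colony. The NESC lines stayed between 174 and 261 FPKM, and all earlier lines lay outside this range, 2 below it and RF-iN-d5 above it. NESC lines averaged 225 ± 39.9 FPKM (SD, n = 4), against 158 ± 155 FPKM (SD, n = 3) for earlier lines. The log2 difference of 0.99 (SE 0.61, limma adjusted p = 0.23) had a 95% interval of -0.41 to 2.40, and that against the induction days was 0.28 (adjusted p = 0.64). Without RF-iN-d5, TUBB3 was called higher than in the earlier lines, with a log2 difference of 1.78 (limma adjusted p = 0.017). Against RF-iN-d11 alone the difference was 1.14 and against RF-iN-d5 alone -0.59. Where the NESC lines are set against 1 induction day, here and for the genes that follow, that day is 1 sample and is assumed to vary like the NESC lines, which alone give the spread.

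TUBB2A, another beta-tubulin of the brain, had the smallest range of the 8 genes, 2.11-fold between its highest and lowest line. It was at 89.2 FPKM in the fibroblasts, 85.4 on day 5, 42.3 on day 11, 52.3 at NESC passage 6, 45.8 at passage 23, 50.3 in the C8 colony and 42.3 in the A9 colony. The fibroblasts and day 5 were above all other lines, and RF-iN-d11 was level with the NESC lines. NESC lines averaged 47.7 ± 4.53 FPKM (SD, n = 4), against 72.3 ± 26.1 FPKM (SD, n = 3) for earlier lines. Neither the log2 difference of -0.52 from the earlier lines (SE 0.26, limma adjusted p = 0.14) nor that of -0.33 from the induction days (SE 0.27, adjusted p = 0.34) was called, and the difference from RF-iN-d11 alone, a single sample, was 0.16. TUBB2A and TUBB2B are near-identical copies, and fragments of TUBB2B may have been counted at this locus.

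STMN2, also called SCG10 and a stathmin of growing axons, had the widest range of the 8 genes, 118-fold between its highest and lowest line. It was at 15.2 FPKM in the fibroblasts, 705 on day 5, 537 on day 11, 39.1 at NESC passage 6, 9.87 at passage 23, 7.00 in the C8 colony and 5.98 in the A9 colony. On both induction days it was above every other line, and in RF-iN-d5 its level was 46.4 times that of RF-P3. Endothelial and blood markers, 6 genes, had summed FPKM of 4.83 in the fibroblasts, 106 on day 5, 52.4 on day 11, 6.78 in CHIR-P6 and at most 0.593 in the other NESC lines. Keratinocyte markers, 5 genes, summed to 7.20 FPKM on day 5, 7.58 on day 11 and at most 2.66 elsewhere, and the part of either list in the levels of STMN2 and MAPT was not tested. CHIR-P6 lay between these days and the rest, and the other 3 NESC lines were below the fibroblasts. NESC lines averaged 15.5 ± 15.8 FPKM (SD, n = 4), against 419 ± 360 FPKM (SD, n = 3) for earlier lines, a log2 difference of -3.88 (SE 1.30, limma adjusted p = 0.0495). The call was lost with any 1 line left out other than RF-P3 or CHIR-P6 (log2 differences of -2.90 with RF-iN-d5 omitted, -3.10 with RF-iN-d11, -3.81 with CHIR-P23, -3.66 with C8-P7 and -3.60 with A9-P7 omitted). Set against the induction days, STMN2 fell by 5.63 on the log2 scale (SE 0.69, limma adjusted p = 0.0019), and all 4 NESC lines were below both days. Among the NESC lines, CHIR-P6 stood apart at 39.1 FPKM, and its summed fibroblast markers were at 65.2 FPKM, against 14.5 to 31.3 FPKM in the other 3. Muscle markers, 6 genes, summed to 143 FPKM in CHIR-P6, against 1.01 to 15.3 FPKM in the other 3. Not all of them were high there, with MYH3 at only 0.0334 FPKM in CHIR-P6. In the earlier lines the 6 muscle markers summed to 186 FPKM in RF-P3, 21.3 FPKM on day 5 and 4.66 FPKM on day 11. Their part in the level of STMN2 was not tested.

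STMN1, the stathmin of dividing and young cells, had a range of only 2.38-fold between its highest and lowest line. It was at 598 FPKM in the fibroblasts, 296 on day 5, 251 on day 11, 469 at NESC passage 6, 391 at passage 23, 490.4 in the C8 colony and 399 in the A9 colony. The fibroblasts were the highest line and the induction days, at which STMN2 peaked, were the lowest. NESC lines averaged 437 ± 49.9 FPKM (SD, n = 4), against 382 ± 188 FPKM (SD, n = 3) for earlier lines, with a log2 difference of 0.29 (SE 0.28, limma adjusted p = 0.43, 95% interval -0.36 to 0.95). The difference from the induction days was 0.67 (SE 0.14, limma adjusted p = 0.010), without overlap but under the 2-fold minimum. Proliferation markers were also lowest on these days. Their sum over 11 genes was 1318 FPKM for the fibroblasts, 703 on day 5, 556 on day 11 and between 1242 and 1695 FPKM in NESC lines, and their part in the level of STMN1 was not tested.

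MAP2, which stabilises microtubules of dendrites, had the largest positive log2 difference of the 8 genes from the earlier lines, though not from the induction days, where that of DCX was larger. It was at 1.80 FPKM in the fibroblasts, 19.2 on day 5, 6.13 on day 11, 30.7 at NESC passage 6, 27.4 at passage 23, 39.5 in the C8 colony and 26.9 in the A9 colony. All NESC lines were above all earlier lines, although RF-iN-d5 already had a level 10.7 times that of the fibroblasts. NESC lines averaged 31.1 ± 5.85 FPKM (SD, n = 4), against 9.05 ± 9.07 FPKM (SD, n = 3) for earlier lines, a 3.44-fold difference of means and a log2 difference of 2.10 (SE 0.58, limma adjusted p = 0.025). Against the induction days MAP2 rose by a log2 difference of 1.40 (SE 0.40, limma adjusted p = 0.031). The call against the earlier lines was lost without RF-iN-d11 (2.08, adjusted p = 0.069), CHIR-P23 (2.16, 0.054), C8-P7 (1.99, 0.069) or A9-P7 (2.17, 0.056). The call against the induction days was lost without the same lines, with log2 differences of MAP2 of 0.65 against the single sample RF-iN-d5, and of 1.46, 1.29 and 1.47 without CHIR-P23, C8-P7 and A9-P7 in turn.

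MAPT, which encodes tau of the axon, was low throughout and was highest on day 5. It was at 0.408 FPKM in the fibroblasts, 5.60 on day 5, 3.22 on day 11, 2.06 at NESC passage 6, 1.02 at passage 23, 0.847 in the C8 colony and 1.61 in the A9 colony. The NESC lines lay between the fibroblasts and the induction days without overlap with either. MAPT averaged 1.38 ± 0.557 FPKM (SD, n = 4) across NESC lines, against 3.08 ± 2.60 FPKM (SD, n = 3) across earlier lines, and the log2 difference of -0.54 was not called (SE 0.50, limma adjusted p = 0.41). Against the induction days MAPT fell by 1.18 on the log2 scale (SE 0.29, limma adjusted p = 0.019). That call was lost against RF-iN-d11 alone, a single sample (-0.85, adjusted p = 0.13), without CHIR-P23 (-1.11, 0.052), with a pseudocount of 5 (-0.55) and after quantile normalization (-0.90). Its libraries differed by up to 16.7% within a line, the most of the 8 genes, and the pseudocount understates differences at such levels. The study lists no strand option for its alignment or counting, and without one fragments of a gene that overlaps MAPT on the other strand cannot be told apart from it.

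DCX, a microtubule-binding protein of migrating young neurons, stayed under 1 FPKM until the NESC stage. It was at 0.564 FPKM in the fibroblasts, 0.382 on day 5, 0.840 on day 11, 4.91 at NESC passage 6, 2.02 at passage 23, 3.51 in the C8 colony and 5.39 in the A9 colony. All NESC lines were above all earlier lines, and DCX was the only one of the 8 genes whose lowest line was RF-iN-d5. NESC lines averaged 3.96 ± 1.52 FPKM (SD, n = 4), against 0.595 ± 0.231 FPKM (SD, n = 3) for earlier lines, a 6.65-fold difference of means. On log2(FPKM + 1) DCX rose by 1.59 (SE 0.29, limma adjusted p = 0.0055), and against the induction days by 1.58 (SE 0.34, limma adjusted p = 0.012). The call against the earlier lines was kept with each 1 line left out (1.45 to 1.81 on the log2 scale), and that against the induction days was lost where 1 day was left as a single sample, with differences of 1.37 against RF-iN-d11 (limma adjusted p = 0.10) and 1.78 against RF-iN-d5 (adjusted p = 0.056). With a pseudocount of 5, the differences of DCX were 0.66 and 0.66 and no longer reached 2-fold.

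**Figure D2:**
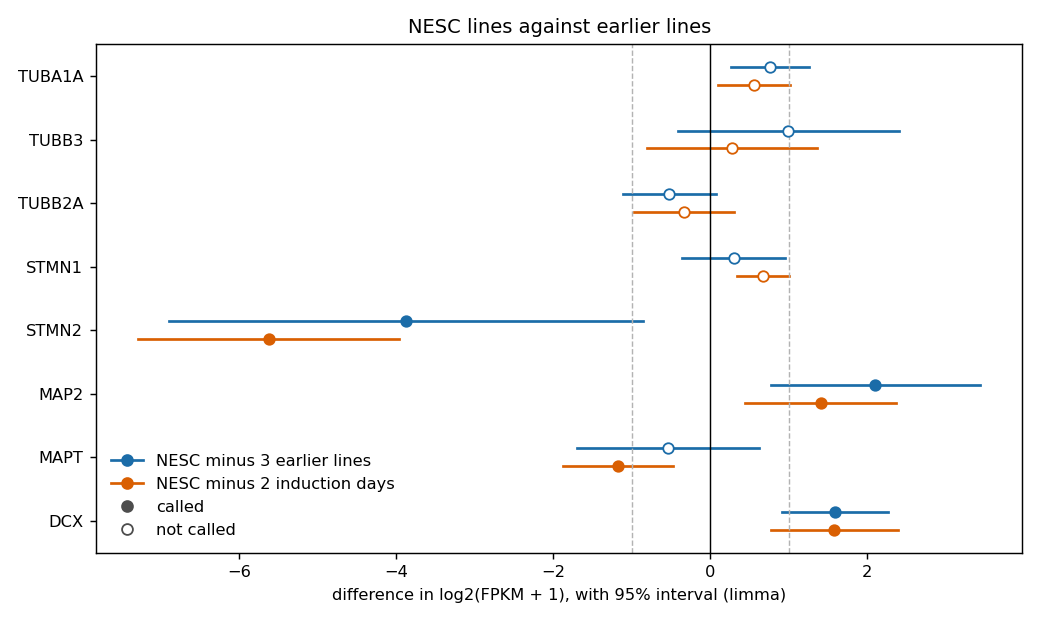
Difference in log2(FPKM + 1) of the NESC lines (n = 4) from all 3 earlier lines (blue) and from the 2 induction days (orange), with 95% intervals from limma; filled points are called and dashed lines mark a 2-fold difference. DCX and MAP2 lie right of the upper line and STMN2 left of the lower line in both comparisons, whereas MAPT is called only against the induction days.

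Set out stage by stage, the genes changed most on entry into the induction and on exit from it. In RF-iN-d5, 4 of the 8 genes were at least 2-fold higher than in RF-P3 (TUBB3, STMN2, MAP2 and MAPT) and 1 was at least 2-fold lower (STMN1), beside 9.37% and 8.42% of all genes tested. These 4 had log2 differences of 3.01 for TUBB3, 5.45 for STMN2, 2.85 for MAP2 and 2.23 for MAPT, while that of STMN1 was -1.01. On day 11, against day 5, 0 genes were 2-fold higher on log2(FPKM + 1) and 2 were 2-fold lower (2.85% and 2.52% of all genes), with log2 differences of -1.73 for TUBB3 and -1.50 for MAP2. TUBB2A was just short of 2-fold on this scale, with 42.3 FPKM on day 11 and 85.4 FPKM on day 5. DCX, at 0.840 FPKM on day 11 and 0.382 FPKM on day 5, was more than 2-fold higher without the added 1. STMN2 differed by -0.39 at this step.

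CHIR-P6 then had 4 genes at least 2-fold higher than RF-iN-d11 and 1 lower, beside 8.49% and 13.1% of all genes tested. MAP2 differed by a log2 of 2.15, DCX by 1.68, TUBB3 by 1.32 and TUBA1A by 1.05, and STMN2 by -3.75. TUBB3 and MAP2 thus stood high on day 5, lower on day 11 and high again in CHIR-P6, whereas STMN2 was high on both induction days and low in CHIR-P6. In CHIR-P23, on log2(FPKM + 1), STMN2 was the 1 gene 2-fold lower than in CHIR-P6 (-1.88) and 0 were higher, beside 4.28% of all genes lower and 1.39% higher. The ratios of FPKM without the added 1 were also under 0.5 for DCX (0.413) and MAPT (0.494). C8-P7 had 0 genes 2-fold away from CHIR-P23 in either direction (1.04% of all genes were higher and 2.39% lower), and A9-P7 had DCX higher (1.08) and 0 lower (1.57% and 2.59% of all genes). These steps compare 1 sample with 1 sample and have no test.

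The balance of isotypes is a further view of the tubulins, since FPKM are scaled by length. TUBB, the widespread beta-tubulin, made up most of the beta-tubulin FPKM in every line, and TUBB3 took a share of 2.91% in the fibroblasts, 28.5% on day 5, 12.1% on day 11, 19.1% at NESC passage 6, 11.8% at passage 23, 16.3% in the C8 colony and 14.3% in the A9 colony. The share of TUBB3 in RF-iN-d5 was thus above that of every NESC line. It averaged 15.4% ± 3.10 (SD, n = 4) across NESC lines, against 14.5% ± 12.9 (SD, n = 3; exact permutation test, two-sided, p = 0.97) across earlier lines. TUBB2A took 3.26% ± 0.497 (SD, n = 4) across NESC lines, against 6.26% ± 1.10 (SD, n = 3) across earlier lines. All NESC lines were below all earlier lines, which gives the smallest exact p that 4 against 3 samples allow (p = 0.057). TUBB2B, TUBB6 and TUBB4B are not in these shares. TUBB4B appears to be merged into a locus labelled RNF224, which was not checked by sequence or coordinates. With that locus added, the share of TUBB3 was 12.9% in the NESC lines and 12.2% in the earlier lines.

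Among the alpha-tubulin loci used here, which do not include TUBA1C, TUBA1A and TUBA1B together made up nearly all FPKM. The share of TUBA1A was 23.9% in the fibroblasts, 50.8% on day 5, 54.0% on day 11, 58.7% at NESC passage 6, 44.6% at passage 23, 44.7% in the C8 colony and 51.6% in the A9 colony. It stood apart in the fibroblasts, where TUBA1B took 75.3%, and was between 44.6% and 58.7% in all other lines. In the NESC lines TUBA1A averaged 49.9% ± 6.70 (SD, n = 4) and in the earlier lines 42.9% ± 16.5 (SD, n = 3; exact permutation test, two-sided, p = 0.63), and without RF-P3 the difference was -2.51 percentage points. Summed alpha-tubulin was 1815 ± 141 FPKM (SD, n = 4) across NESC lines, against 1334 ± 305 FPKM (SD, n = 3; exact permutation p = 0.057, the smallest possible) across earlier lines. Summed beta-tubulin was 1472 ± 120 FPKM (SD, n = 4) across NESC lines, against 1132 ± 284 FPKM (SD, n = 3; exact permutation p = 0.11) across earlier lines. This sum leaves out TUBB2B, TUBB6 and the RNF224 locus, so it is not the whole of beta-tubulin. Where added, the RNF224 locus took 23.2% of beta-tubulin FPKM in RF-P3, 14.8% on day 5 and 17.5% on day 11. In the NESC lines it took 15.2% to 16.6%.

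**Figure D3:**
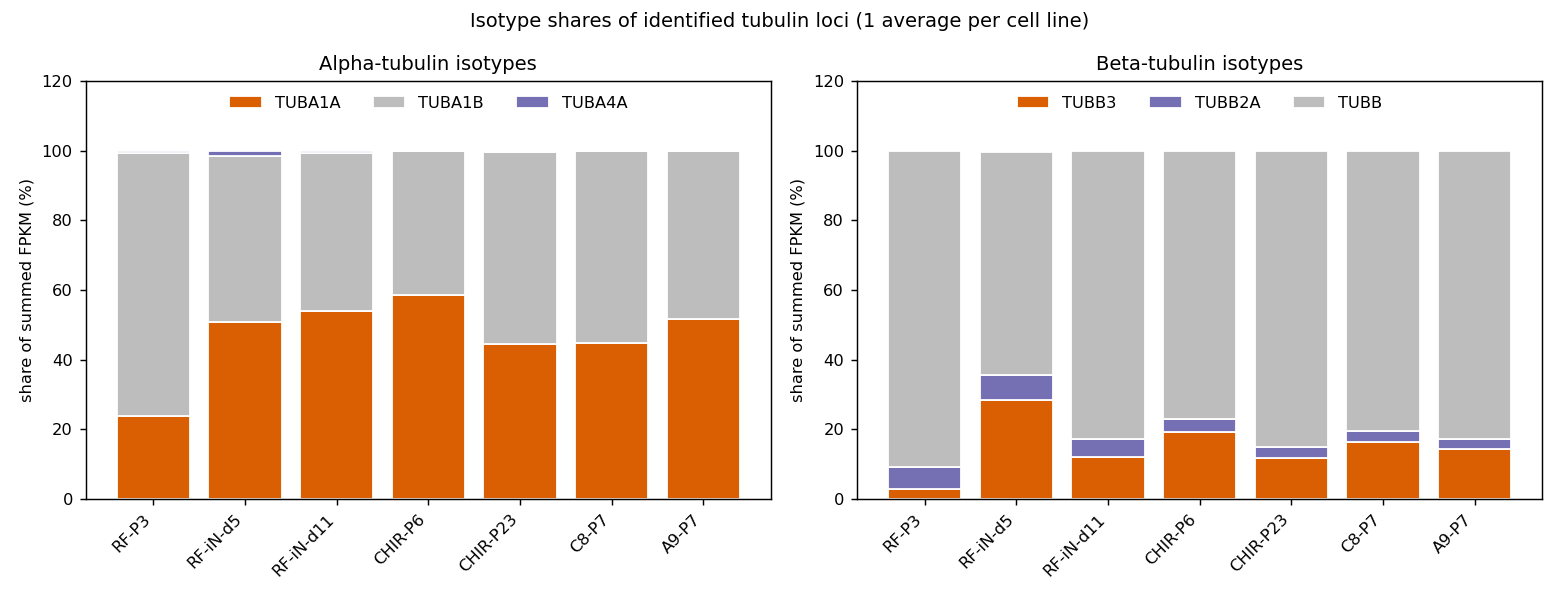
Share (%) of each isotype in the summed FPKM of the identified alpha-tubulin loci (left) and beta-tubulin loci (right) in the 7 cell lines, 1 average a line; the small rest to 100 belongs to rare isotypes. TUBA1A has its smallest share in RF-P3 (23.9%), and TUBB3 its smallest in RF-P3 (2.91%) and its largest in RF-iN-d5 (28.5%).

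The wider set of tubulin and microtubule genes held more increases than decreases in the NESC lines. Over 11 lists, 13 of 85 genes tested were called higher and 4 lower against the earlier lines, beside the 7.57% and 13.2% of all genes given above. Without RF-iN-d11, 7 were lower. The list with the most calls was that of motor proteins: of 12 neuronal kinesins tested, 5 were called higher and 0 lower. KIF5C, a heavy chain of the axonal motor kinesin-1, rose by a log2 difference of 3.77 (SE 0.55, limma adjusted p = 0.0022), with 22.6 ± 11.2 FPKM (SD, n = 4) across NESC lines, against 0.720 ± 1.07 FPKM (SD, n = 3) across earlier lines. KIF1A, which carries synaptic vesicle precursors, rose by 3.33 (SE 0.53, limma adjusted p = 0.0032) and KIF5A, another kinesin-1 heavy chain, by 2.22 (SE 0.24, adjusted p = 6.6e-04). KIF21A rose by 1.44 (limma adjusted p = 0.030), as did KIF1B by 1.16 (adjusted p = 0.0013), a gene named here only after its value was seen and not refitted under the alternatives. KIF5B, the kinesin-1 heavy chain found in all tissues, was at 54.9 ± 3.78 FPKM (SD, n = 4) across NESC lines, against 98.7 ± 39.2 FPKM (SD, n = 3) across earlier lines, a log2 difference of -0.77 that was not called.

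Among 23 other structural microtubule-associated proteins tested, 2 were called higher and 2 lower, shares near and below those of all genes (7.57% and 13.2%). With 1 line left out, 1 (without RF-iN-d11 or A9-P7) to 3 (without CHIR-P6) were higher and 2 to 5 (without RF-iN-d11) lower. MAP6, which makes microtubules resistant to cold, was nearly absent before the NESC stage, with 10.1 ± 2.90 FPKM (SD, n = 4) across NESC lines, against 0.137 ± 0.147 FPKM (SD, n = 3) across earlier lines, and rose by 3.26 on the log2 scale (SE 0.23, limma adjusted p = 1.4e-04). CKAP5, a microtubule polymerase of the spindle, rose by 1.06 (limma adjusted p = 0.0041). MAPRE3, a protein of growing microtubule ends, fell by 2.32 (limma adjusted p = 0.0098), and NDEL1, a partner of dynein, fell by 1.42 (adjusted p = 6.8e-04). Of 16 tubulin modifying enzymes tested, 3 were called higher and 0 lower. TTLL4, which adds glutamates, rose by 1.56 (limma adjusted p = 3.6e-04) and AGBL5, which removes glutamates, by 1.49 (adjusted p = 0.0031). HDAC6, the tubulin deacetylase, rose by 1.14 (limma adjusted p = 0.0069).

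The remaining lists had few calls. TUBA4A, an alpha-tubulin, fell by 2.50 (limma adjusted p = 0.023) as 1 of 2 other alpha-tubulins tested, and TUBG2, a gamma-tubulin, fell by 1.16 (adjusted p = 0.0049) as 1 of 4 gamma-, delta- and epsilon-tubulins. One gene each was called higher among 2 doublecortin relatives (DCLK2, 1.02, limma adjusted p = 0.049), 7 severing factors (FIGN, 1.23, adjusted p = 0.030) and 10 kinases of tau and MAPs (MARK1, 1.55, adjusted p = 0.0055). None of 2 other beta-tubulins, 2 other stathmins or 5 folding cofactors was called. STMN3 was listed at 0 in RF-P3 and at 13.9 to 23.3 FPKM in all other lines (log2 difference 1.72, limma adjusted p = 0.18), and STMN4 had a log2 difference of 0.94 (adjusted p = 0.090). Among the genes named from these lists, TUBA4A lost its call without RF-P3, RF-iN-d5, C8-P7 or A9-P7 (-2.42 to -2.15), TUBG2 without RF-P3 (-0.99), CKAP5 without RF-iN-d11 (0.94) or A9-P7 (0.99) and HDAC6 without RF-iN-d5 (0.95). DCLK2 lost it with any 1 line left out other than RF-iN-d11 or CHIR-P6 (0.82 to 1.16), FIGN other than RF-iN-d11 (0.81 to 1.33), and KIF21A other than RF-iN-d5 or RF-iN-d11 (0.87 to 1.55).

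**Figure D4:**
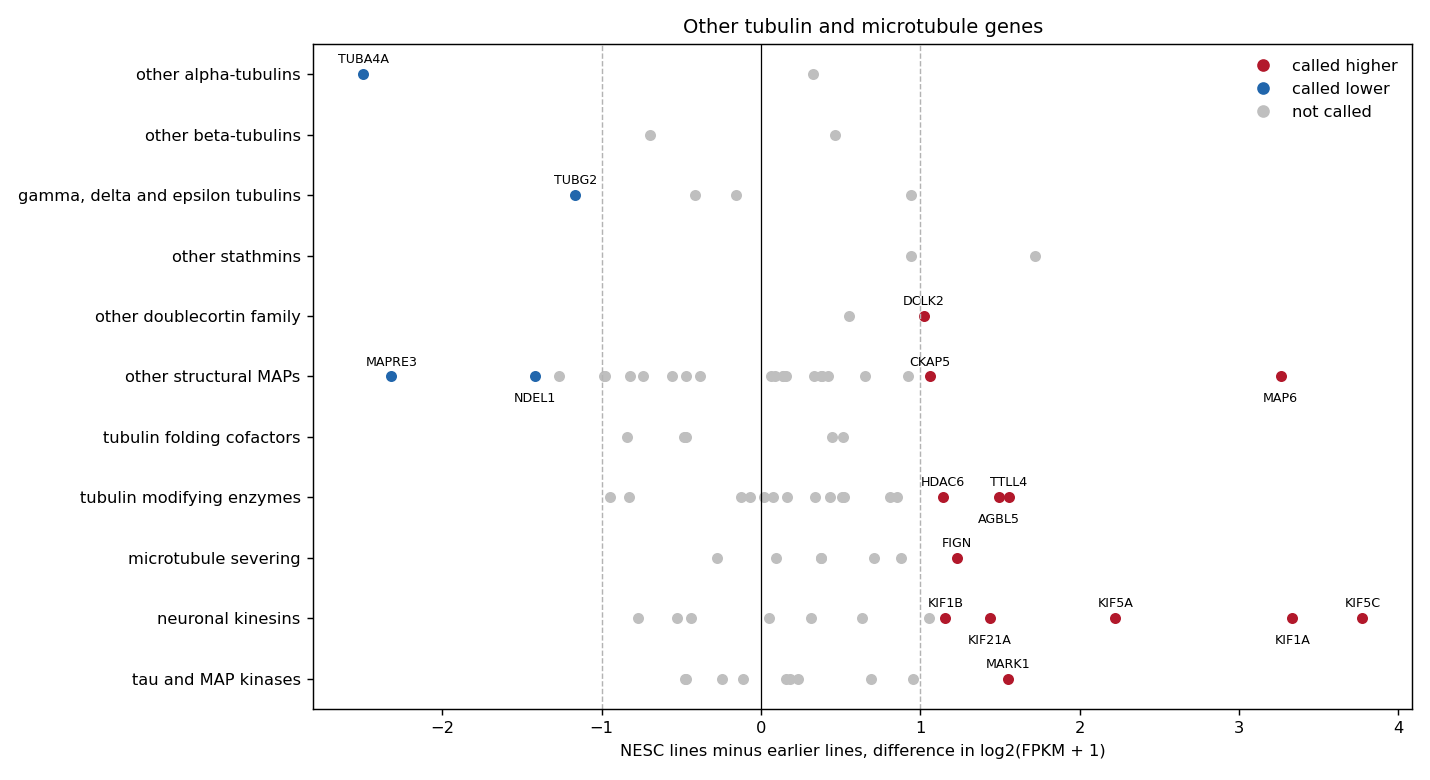
Difference in log2(FPKM + 1) of the NESC lines (n = 4) from the earlier lines (n = 3) for every gene tested in 11 lists of tubulin and microtubule genes, 1 point a gene; red points are called higher, blue points lower, and dashed lines mark 2-fold. The neuronal kinesins hold 5 of the 13 increases, with KIF5C at 3.77 and KIF1A at 3.33.

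Other genes of neurons were likewise split between higher and lower. Of 16 other neuronal markers tested, 4 were called higher in the NESC lines (ELAVL2, ELAVL3, NEFM and INA) and 5 lower (THY1, SYT1, GAP43, STX1A and DPYSL3), beside 7.57% and 13.2% of all genes. With 1 line left out, the count higher went down to 2 (without C8-P7 or A9-P7) and the count lower to 2 (without RF-iN-d5). ELAVL3 differed by 1.70, INA by 2.04, SYT1 by -1.85, GAP43 by -1.32, STX1A by -1.13 and DPYSL3 by -1.08 on the log2 scale. NEFM, a neurofilament subunit, rose by a log2 difference of 2.27 (SE 0.59, limma adjusted p = 0.020) and ELAVL2, an RNA-binding protein of neurons, by 2.23 (SE 0.49, adjusted p = 0.011). THY1, a surface protein of neurons and of fibroblasts, fell by 6.15 (SE 0.92, limma adjusted p = 0.0025), with 155 FPKM in the fibroblasts, 359.5 on day 5, 379 on day 11 and 0.259 to 21.3 FPKM at the NESC stage. NEFM was no longer called with CHIR-P23, C8-P7 or A9-P7 omitted (2.15 to 2.27). Of 19 neuronal markers found, 2 stayed under 1 FPKM in every line. RBFOX3 (the NeuN antigen) did not exceed 0.587 FPKM and SYP (synaptophysin) 0.940 FPKM. The 16 markers tested, which reached 1 FPKM in no fewer than 2 libraries, include SYT1, SNAP25 and STX1A. Summed, the neuronal markers were at 647 to 693 FPKM in the NESC lines and 951 to 1259 FPKM in the earlier lines, highest in RF-iN-d5. Without THY1, a sum added after seeing the data, they were at 634 to 693 FPKM in the NESC lines, against 796 FPKM for the fibroblasts, 899.7 on day 5 and 589.7 on day 11, so day 11 then lay below the NESC lines. Their part in the levels of TUBB3, STMN2, MAP2 and MAPT was not tested.

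Markers of other cell types give the background to these levels. Among neuroepithelial markers, 11 of 12 tested were called higher, led by LIN28A (7.21), POU3F2 (4.83) and SOX3 (4.37), and all 12 fibroblast markers were called lower, led by COL1A2 (-9.65), COL1A1 (-9.13) and COL3A1 (-8.32, limma adjusted p of all 6 at most 0.042). With 1 line left out, 7 (without RF-iN-d5) to 10 neuroepithelial markers were called. SOX3 lost its call with any 1 line left out other than CHIR-P6 (3.75 to 4.40). Of 11 proliferation markers, 4 were called higher against the earlier lines, among them MCM2 (1.56), TOP2A (1.53) and BUB1 (1.18), and 10 against the induction days. Leaving out RF-P3 is the same fit as that against the induction days. The count of 4 became 2 without each of the other lines except CHIR-P6 (3). BUB1 lost its call with any 1 line left out other than RF-P3 or CHIR-P6 (0.77 to 1.17). Among markers of glia, muscle, keratinocytes and vessels, the calls included SLC1A3 as higher (1.43) and MBP (-1.06), MYH3 (-2.74), CD34 (-4.69), PECAM1 (-1.17) and PDGFRA, which is also a fibroblast marker (-4.09), as lower. SLC1A3, MBP, MYH3 and PECAM1 lost the call with at least 4 of the 7 lines left out in turn. OLIG1 and OLIG2 were listed at 0 in every line, and S100B, AQP4 and SOX10 did not exceed 0.244 FPKM.

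REST, the repressor of neuronal genes in cells that are not neurons, was at 17.7 FPKM in the fibroblasts, 17.6 on day 5, 16.7 on day 11, 11.7 at NESC passage 6, 10.5 at passage 23, 10.7 in the C8 colony and 11.0 in the A9 colony. All NESC lines were below all earlier lines, but the log2 difference of -0.61 (SE 0.12, limma adjusted p = 0.0066) was under the 2-fold minimum. Of the 7 genes of its co-repressor list, REST included, 2 were called higher and 0 lower, beside 7.57% and 13.2% of all genes. They were RCOR2 (2.27, limma adjusted p = 0.0028) and EHMT2 (1.01, adjusted p = 0.0097). With 1 line left out, 1 to 2 were called higher. The part of REST in the levels of the microtubule genes was not tested.

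**Figure D5:**
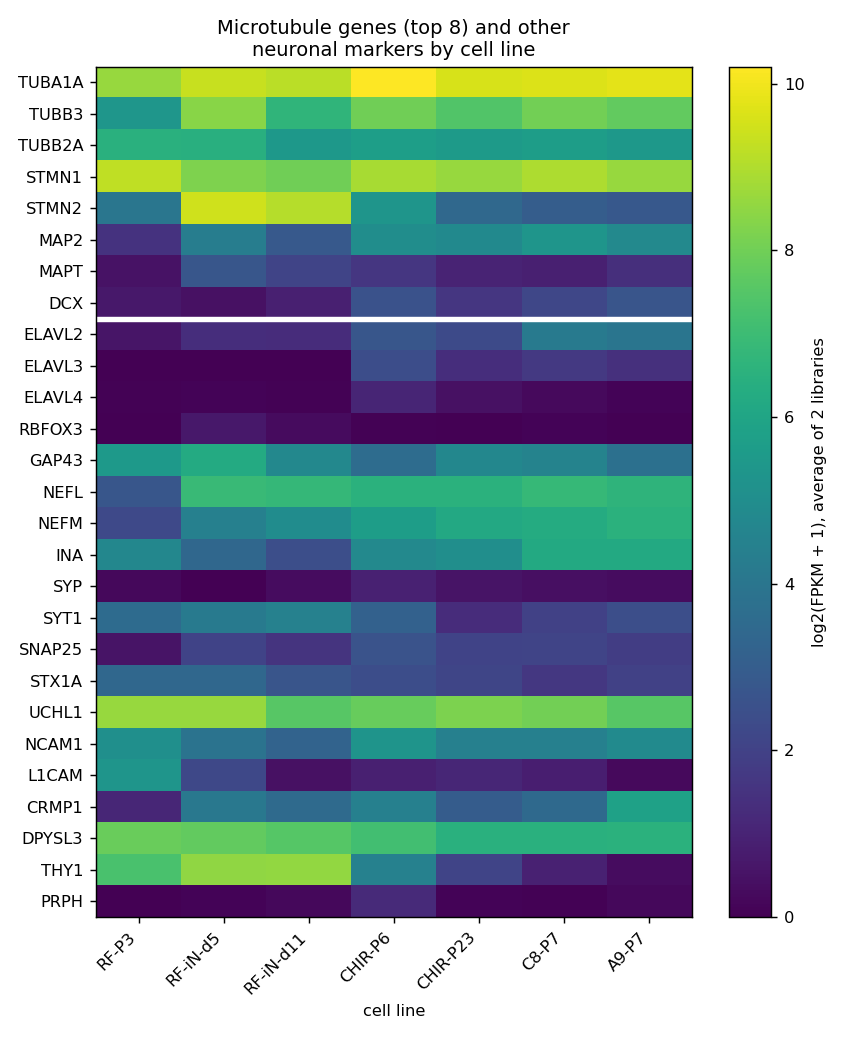
Heat map of log2(FPKM + 1), from the average of 2 libraries, for the 8 microtubule genes (top rows) and other neuronal markers (below the white line) in the 7 cell lines. STMN2 and THY1 are bright on both induction days, NEFM and INA in the NESC lines, and RBFOX3 and SYP are dark in every line.

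To name genes with a like course, the Pearson correlation over the 7 line averages was computed with the 1444 or 1445 other genes that reached 20 FPKM in a line and spanned at least 2 on log2(FPKM + 1). It was done for the 5 of the 8 genes that also spanned 2. It is a description, since the lines are related stages of 1 conversion and the best of many genes were taken. Nearest to STMN2 were BMP4, a secreted growth factor (r = 0.99), FAM213A (0.98) and ZMAT3 (0.98), all highest on the induction days. BMP4 was at 1.06 FPKM in the fibroblasts, 20.9 on day 5, 11.7 on day 11, 1.03 at NESC passage 6 and no more than 0.441 FPKM thereafter. MAP2 was nearest to QPRT, an enzyme of NAD synthesis (0.98), MGST1 (0.97) and STK26 (0.97), and TUBB3 to TM7SF2, an enzyme of sterol synthesis (0.93), MAP2 itself (0.92) and QPRT (0.92). Nearest to DCX were MEIS3, a homeobox factor (0.96), DRAXIN, a repulsive guidance protein of axons (0.96), and EFNB3, an ephrin (0.96). DRAXIN was at 19.3 to 43.6 FPKM at the NESC stage, against 0.0406 FPKM or less before it. MAPT was nearest to BCAM (0.95), KLF10 (0.95) and BCHE (0.95), which like MAPT were highest on day 5.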

How the data were processed

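RNA was sequenced after removal of ribosomal RNA only. The deposited values are FPKM, made by the authors. The submitters' processing notes name HISAT2 2.1.0, the Cufflinks 2.2.1 and Cuffnorm 2.2.1 programs and the build Mmul_8.0.1. The study lists no strand option, and the version of the annotation is not given in the sources used here. The table has 33737 loci. Loci 1202 to 29646 took the values of the next locus and 49 loci were left out, because only then did 1481 of 1627 genes (91.0%) match the averages in the study's own gene table within 0.3 on log2(FPKM + 1), against 144 (8.85%) before. DCX and TUBB2A lie outside the moved stretch. A LOC number was turned into a symbol by gene ID for 754 loci, and of a repeated symbol the locus with the highest mean was used.

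The methods of the study average the 2 libraries of a line. This was kept after a check for sampling noise on 3177 genes with low values that were whole multiples of 1 fragment (within 0.05). The study calls the libraries biological replicates, and the labels do not say whether they came from separate cultures. Line averages of log2(FPKM + 1) were fitted with limma 3.58.1 (R 4.3.3, intensity trend) for genes that reached 1 FPKM in no fewer than 2 libraries, and a call needs a Benjamini-Hochberg adjusted p under 0.05 and a log2 difference of at least 1. The fit was also run on simulated data with independent noise between lines. The lines here are related stages, so that run does not check these p-values. P-values reflect the spread between stages, not between independent conversions, and fold changes on this scale understate those of low genes. Single values with 4 against 3 samples were compared by exact permutation (35 splits). Scripts ran in Python 3.11.15 (SciPy 1.17.1, NumPy 2.4.6, pandas 2.3.3), with plots from Matplotlib 3.10.9. Alternatives were other pseudocounts, filters, scalings and treatments of libraries, and each line left out. Named genes are the genes described, up to 4 called genes per pathway list and 3 per marker list by size of the difference, REST, and the 3 genes of nearest course; others are said to be named after their values were seen or complete a short count. The genes and lists were chosen with earlier results of these data known. No sequences or coordinates were used. One marker gene that met the rule is not reported here.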

Additional observations from a re-analysis of the deposited data

Results flagged for a closer look

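In groups of 4 to 10 samples, a line was picked out when its gap to the next line took most of the range of its group. For independent groups, chance gives about 1 in 20. The 52 groups of NESC lines looked at share the same 4 lines, so their count is not set against that rate. Of these 52 groups, 7 had such a line. In 5 of them CHIR-P6, the earliest NESC line, was the highest. STMN2 was at 39.1 FPKM (5.98 to 9.87 in the other NESC lines), MAPRE3 at 4.95 FPKM, THY1 at 21.3 FPKM and COL3A1 at 12.8 FPKM. MYH3 was at only 0.0334 FPKM, near the floor. In LIN28A CHIR-P6 was the lowest, at 51.4 FPKM. In MAP6 the colony A9-P7 was the highest, at 14.4 FPKM.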

How the results depend on the processing

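Of 248 alternative values of the 8 genes' log2 differences, 216 kept their direction and call, 26 lost the call, 4 gained it and 2 changed sign (TUBB2A against the induction days, 0.16 without RF-iN-d5 in a range of -0.83 to 0.16, and TUBB3, -0.59 without RF-iN-d11 in a range of -0.59 to 1.14). Against the earlier lines, a pseudocount of 5 left 1 gene called higher and 0 lower, and the 0 lower also held with no filter, after quantile normalization and with libraries rescaled to the same total, all through STMN2 (adjusted p = 0.055, 0.093, 0.055 and 0.055). Against the induction days, a pseudocount of 5 gave 1 higher and 1 lower, no filter 1 higher and quantile normalization 1 lower. Leaving out each line in turn gave 1 to 3 higher and 0 to 2 lower genes against the earlier lines, and 0 to 2 higher and 1 to 2 lower against the induction days. Over all genes, the leave-outs against the earlier lines gave 868 to 1238 calls higher and 1628 to 2218 lower. Without RF-P3, that comparison is the same fit as the one against the induction days. Its values for the 8 genes, counted among the 248, therefore repeat that fit and give no added check. Over the microtubule lists, calls were 8 higher with a pseudocount of 5, 7 lower with one of 0.1, and 9 to 15 higher and 3 to 7 lower with each line left out (7 lower without RF-iN-d11). Between neighbouring lines, STMN1 was no longer 2-fold lower in RF-iN-d5 with a pseudocount of 5 or rescaled libraries (0 genes), A9-P7 had 0 genes higher with a pseudocount of 5, and CHIR-P23 had 2 genes lower than CHIR-P6 with one of 0.1. With each line left out, differences of shares ran from -4.90 to 7.87 percentage points for TUBB3 (-4.90 without RF-P3, -0.32 without RF-iN-d11, -0.37 without CHIR-P6), -5.36 to 8.04 for TUBB (-5.36 without RF-iN-d5), -2.51 to 12.5 for TUBA1A and -11.5 to 3.43 for TUBA1B (-2.51 and 3.43 without RF-P3). The leave-outs for alpha-tubulin, the RNF224 locus and the neuronal sum without THY1 were added after seeing the data. Quantile normalization moved the median of all genes to 0.15 and rescaling to 0.09, from -0.02. With the 14 libraries as samples and the replicate block, the counts of the 8 genes were again 2 higher and 1 lower, and 2 and 2 against the induction days, as without the block. These 2 settings, also among the 248 alternative values, count each line as 2 samples although its libraries differed by less than sampling noise. They therefore give no added check. The library numbers share only a number, as the 21 correlations of deviations lay between -0.030 and 0.065, and the block moved calls over all genes to 1282 higher and 2357 lower, from 1294 and 2368. TUBB2A and TUBB2B could not be taken as 1 isotype, since no TUBB2B locus was used here. The leave-outs had fewer samples and the setting with no filter tested more genes. The causes of these changes were not tested. Of 36 genes named from the lists, 16 lost their call under at least 1 alternative and 0 changed sign.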
